A study of Mus musculus with 40 samples.

Results

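The genes described are 32 markers of the neurons of the inner retina, chosen by name from the 54307 rows of a table of normalized counts. The list holds 10 genes of ganglion cells, 9 of amacrine cells, 9 of bipolar cells and 4 of horizontal cells, and each symbol matched 1 Ensembl identifier. RNA was sequenced from retina and choroid of the same 20 mice, killed 3 days after 6 laser burns per eye that break Bruch's membrane and start choroidal neovascularization (CNV). All mice were Tgfbr2 fl/fl on a C57BL/6J background, and all received tamoxifen eye drops for 5 days from an age of 6 to 7 weeks. Tgfbr2 ΔEC mice also carried Cdh5-CreERT2, a tamoxifen-dependent recombinase under an endothelial promoter, and controls were littermates without it. PLX5622 (PLX), an inhibitor of the CSF1 receptor that depletes mononuclear phagocytes, was in the diet from the first tamoxifen dose in the + PLX groups. Each tissue held 4 groups of 5 mice, which were control – PLX (mice 1 to 5), Tgfbr2 ΔEC – PLX (6 to 10), control + PLX (11 to 15) and Tgfbr2 ΔEC + PLX (16 to 20). Both sexes were used, and only the central, lesioned part of the choroid was taken.

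Photoreceptors pass light signals to bipolar cells, and bipolar cells pass them to ganglion cells, whose axons form the optic nerve. Horizontal cells act at the first of these synaptic layers and amacrine cells at the second, mostly with the inhibitory transmitters GABA and glycine. The choroid is a vascular and pigmented layer behind the retina and holds none of these retinal cell classes, so their transcripts in a choroid library raise the question of how much neural retina came along. In whole tissue, fewer cells of a class and less RNA per cell cannot be told apart.

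Values are normalized counts, and depth was about 21015608 to 30476805 reads per retina and 21614088 to 28254158 per choroid. At this depth 3 reads were worth between 2.23 and 3.56 normalized counts, a floor that covers counting error only. The sex pattern of the 2 tissues agreed in all 20 mice, and the numbers of females and males were 2 and 3 in control – PLX, 3 and 2 in Tgfbr2 ΔEC – PLX, 2 and 3 in control + PLX, and 4 and 1 in Tgfbr2 ΔEC + PLX. The targeted gene, *Tgfbr2*, was measured in whole tissue and lay between 8729 and 12801 normalized counts in choroid with overlapping genotypes (means 10503 ± 425 in control – PLX and 10176 ± 1077 in Tgfbr2 ΔEC – PLX, SD, n = 5 each), so it does not check an endothelial deletion here. Retinas 2, 3, 7 and 11 stood apart from the other 16 in the balance of short and long transcripts, and the choroid of mouse 12, at 0.68 on the same log2 measure, from the other 19 (at most 0.30). Without the 4 retinas all 32 members still differed between the tissues, with log2 differences shifted by -0.20 to 0.33, and the carry-over percentages given below changed by a factor of 0.908 (*Trpm1*) to 1.19 (*Stmn2*).

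Of the 32 member genes, 30 were higher in retina and 2, *Rbpms* and *Trpm1*, were higher in choroid (limma, adjusted p at or under 0.05 for all 32). Of the 24317 genes tested in both tissues, 10006 (41.1%) were called higher in retina. The largest difference was that of *Vsx1*, a transcription factor of OFF cone bipolar cells, with a log2 difference of 7.06 (standard error 0.34). *Gad1*, which makes GABA, followed at 7.02 (standard error 0.33), and *Calb1*, the calcium buffer calbindin, at 6.995 (standard error 0.33). *Slc17a6*, the vesicular glutamate transporter of ganglion cells, differed by 6.89 (standard error 0.39), and *Grm6*, the glutamate receptor of ON bipolar cells, by 6.48 (standard error 0.33). *Rbpms*, an RNA-binding protein of ganglion cells that smooth muscle also makes, went the other way, at -0.61 (standard error 0.05). *Trpm1*, the cation channel that the receptor encoded by *Grm6* controls and a gene known as melastatin in melanocytes, was at -1.20 (standard error 0.10).

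*Grm6* and *Trpm1* act in the same ON bipolar cells but differed widely in their choroid percents, so their start regions are shown together. They come from the RefSeq promoter table on GRCm38.p6, an older build than the GRCm39 of the expression data, and run from 250 bases before to 50 after a start site, 5′ to 3′ along the gene. All 3 lie on the + strand, at chr11:50850435-50850734 for *Grm6*, chr7:64153585-64153884 for the first *Trpm1* start and chr7:64185209-64185508 for the second. Capitals mark TAATCC (or GGATTA on the other strand), letters of the kind bound by OTX and CRX factors, and CATGTG (or CACATG), an E-box core of the kind bound by MITF.
Grm6: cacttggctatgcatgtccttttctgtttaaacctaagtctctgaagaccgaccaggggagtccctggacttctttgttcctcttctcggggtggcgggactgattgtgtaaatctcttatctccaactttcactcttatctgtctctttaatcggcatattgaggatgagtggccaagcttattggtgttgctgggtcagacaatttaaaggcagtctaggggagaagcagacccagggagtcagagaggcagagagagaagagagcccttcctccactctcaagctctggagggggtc
Trpm1 first start: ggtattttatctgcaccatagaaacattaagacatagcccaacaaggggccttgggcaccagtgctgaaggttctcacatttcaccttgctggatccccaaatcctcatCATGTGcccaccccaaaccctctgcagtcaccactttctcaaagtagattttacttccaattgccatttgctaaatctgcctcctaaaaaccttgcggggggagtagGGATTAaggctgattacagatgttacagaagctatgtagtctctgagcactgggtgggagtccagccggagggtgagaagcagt
Trpm1 second start: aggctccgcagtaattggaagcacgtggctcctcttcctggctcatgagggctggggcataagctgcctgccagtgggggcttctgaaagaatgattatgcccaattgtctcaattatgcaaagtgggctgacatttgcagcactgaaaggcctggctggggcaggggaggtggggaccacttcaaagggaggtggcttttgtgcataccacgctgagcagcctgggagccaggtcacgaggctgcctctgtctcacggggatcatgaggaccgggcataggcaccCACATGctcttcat

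Both *Trpm1* windows hold the E-box letters and the first also holds the OTX-type letters, while the *Grm6* window holds neither. Of all 32851 windows in the table, 7.06% hold the OTX-type letters and 14.2% the E-box letters. Windows were listed for 22 of the 32 members, with 31 windows in all, and 3 of these held the OTX-type letters (those of *Gad1*, *Trpm1* and *Cabp5*) and 3 the E-box letters (2 of *Trpm1* and 1 of *Pcp2*). A match is a description of these letters only, and the start used in each tissue was not measured. Not listed were *Rbpms*, *Pou4f3*, *Nefl*, *Nefm*, *Nefh*, *Stmn2*, *Calb2*, *Grik1*, *Onecut2* and *Calb1*.

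To ask how much of each transcript the choroid held, the choroid value was divided by the mean of the 20 retinas and given in percent. The ratio compares a gene with itself, but does not remove the differences in transcript length balance between libraries. In 7 members the retinal mean was less than 10 times the lowest choroid. The median choroid was at 221% of the retinal mean for *Trpm1*, 150% for *Rbpms* and 72.8% for *Slc6a9*, the glycine transporter GLYT1. It was at 26.9% for *Prkca*, the protein kinase C of rod bipolar cells, 24.6% for *Tfap2a*, an amacrine transcription factor, 23.1% for *Grik1*, a kainate receptor of OFF bipolar cells, and 16.3% for *Stmn2*, a tubulin-binding protein of growing axons. *Trpm1* lay between 5332 and 11770 normalized counts in the 20 choroids and between 2256 and 4941 in the 20 retinas, without overlap. The summed level of 8 melanocyte genes lay between 137354 and 210557 normalized counts in choroid and between 314 and 1731 in retina, and that of 7 smooth muscle and pericyte genes between 39800 and 70322 in choroid and between 2005 and 3158 in retina. All 8 melanocyte genes were called lower in retina than in choroid, and the part of these cells in the *Trpm1* and *Rbpms* values was not tested.

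The other 25 members had median choroids between 0 and 15.2% of the retinal mean, with a middle value of 0.925%. Since the factor of 10 was applied to these same values, low percentages among the 25 are partly set by it. Just inside the factor was *Sncg*, a synuclein of ganglion cells, at 10.4 times its lowest choroid, and just outside were *Stmn2* at 8.63 and *Grik1* at 8.501.

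Among the ganglion genes, *Slc17a6* had the lowest carry-over, with a median of 0.681%. The POU factor *Pou4f3* was at 0.961% and *Nefl*, the light neurofilament chain, at 1.34%. *Pou4f1* was at 1.44%, *Pou4f2* at 1.63% and *Nefm*, the medium chain, at 1.94%. The heavy chain *Nefh*, at 6.04%, and *Sncg*, at 15.2%, were well above the other chains and factors, and neurofilaments and synuclein also occur in the axons of peripheral nerves. Among the amacrine genes, *Gad1* (0.581%), *Gad2* (0.745%), *Slc32a1*, the vesicular GABA transporter (0.767%), and *Calb2*, calretinin (0.883%), lay close together. *Chat*, the enzyme of acetylcholine synthesis, was at 3.17%, the transcription factor *Tfap2b* at 4.70% and *Th*, the enzyme of dopamine synthesis, at 8.29%.

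Among the bipolar genes, *Vsx1* (0.414%), *Scgn*, secretagogin (0.720%), *Pcp2* (0.833%), *Cabp5* (0.845%), *Grm6* (0.846%) and *Gng13* (0.925%) lay close together, apart from the 3 other bipolar genes, *Grik1*, *Prkca* and *Trpm1*, given above. Of the horizontal cell genes, *Onecut1* had a median of 0% because 12 of the 20 choroids listed it at 0, *Calb1* was at 0.660%, *Lhx1* at 1.05% and *Onecut2* at 1.70%. The 3 transcription factors were low even in retina, with means of 120.0, 163 and 284 normalized counts for *Onecut1*, *Lhx1* and *Onecut2*. *Onecut1* was at or under 3 reads in 14 choroids, *Lhx1* in 13 and *Pou4f3* in 14, and a difference between such choroids was not detectable at this depth.

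**Figure D1:**
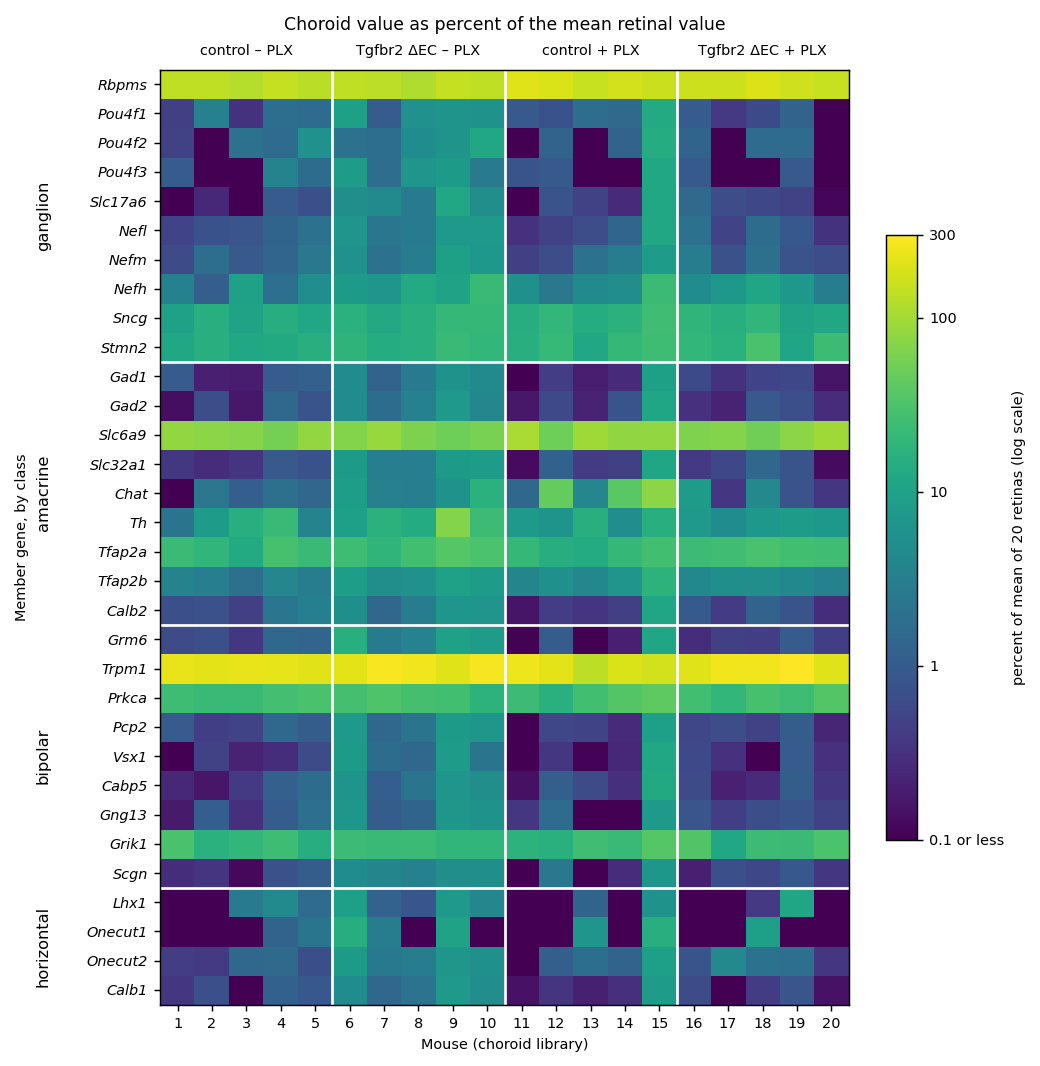
Choroid value as percent of the mean of 20 retinas for the 32 members (rows, by class) in each of the 20 choroids (columns, by group), on a log colour scale from 0.1 to 300 percent. *Rbpms*, *Slc6a9* and *Trpm1* are bright in every column, while the columns of mice 6, 8, 9, 10 and 15 are brighter than the others over most remaining genes.

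In the choroid of mouse 15 (control + PLX) the median over these 25 genes was 11.7% of the retinal level, and 20 of the 25 were higher there than in any other choroid. In mouse 9 the median was 7.46%, in mouse 6 it was 7.77% and in mouse 10 it was 6.05%. At the other end it was 0.148% in mouse 11, 0.313% in mouse 20 and 0.395% in mouse 3. Among the 6 highest choroids of each gene, mouse 15 stood for all 25 genes, mice 9 and 10 for 24 each, mouse 6 for 22, mouse 8 for 19 and mouse 7 for 11. Thus 5 of the 6 choroids that most often ranked high were the 5 of Tgfbr2 ΔEC – PLX, and the sixth was a control + PLX choroid.

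Rod photoreceptors lie between the inner retina and the choroid, so the carry-over of 11 rod genes that share no gene with the list was set beside it. The rod median was 0.167% of the retinal level in mouse 11, 9.64% in mouse 15 and 10.1% in mouse 9, and in every choroid the median of the 25 members divided by the rod median lay between 0.366 (mouse 14) and 1.60 (mouse 3).

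One gene per class was tested against the mean log2 level of the rod genes over the 20 choroids (permutation tests with 100000 resamples, two-sided, adjusted over 4 relations). For *Gad1*, Pearson's r was 0.955 and Spearman's rho 0.970 (permutation test, adjusted p = 1.33e-05 for both, where 1e-05 is the smallest p before adjustment). For *Grm6*, r was 0.904 and rho 0.866 (permutation test, adjusted p = 1.33e-05 for both). For *Slc17a6*, r was 0.881 and rho 0.869 (permutation test, adjusted p = 1.33e-05 for both). These 3 relations held without mice 9 and 11, the choroids farthest from the median rod level, with r of 0.938, 0.876 and 0.834 (permutation test, adjusted p = 2e-05, 2e-05 and 4e-05). They also held after each level was centred on its group mean, with r of 0.939, 0.855 and 0.814, so they did not rest on differences between the groups. *Onecut1* gave r = 0.547 and rho = 0.563 (permutation test, adjusted p = 0.0121 and 0.0107), but without mice 9 and 11 r was 0.457 (permutation test, adjusted p = 0.0567), which missed the threshold, at a slope of 0.549 beside 0.588 with all 20.

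**Figure D2:**
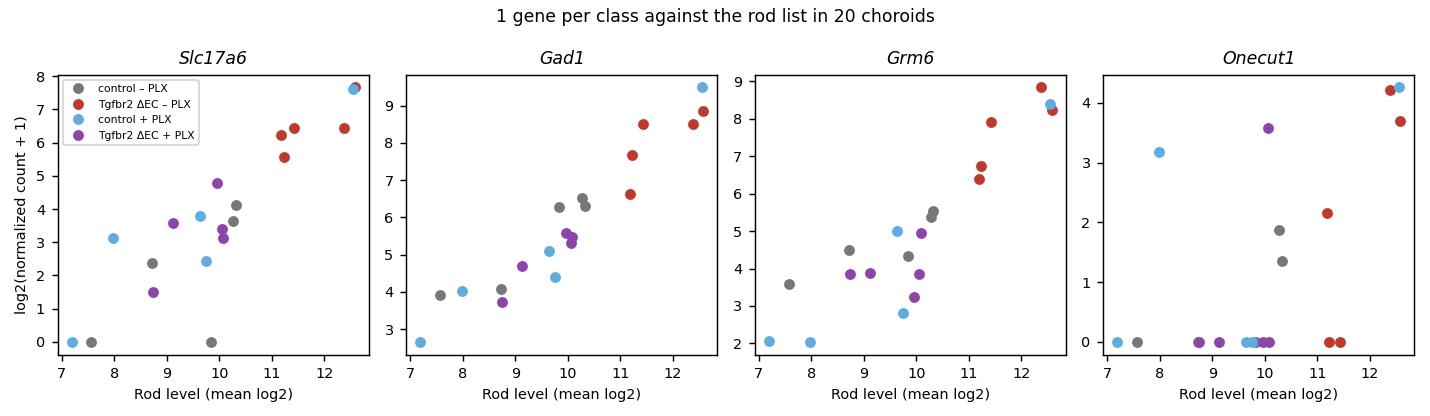
Level of 1 gene per class, log2(normalized count + 1), against the mean log2 level of 11 rod genes, 1 point per choroid and coloured by group. *Gad1*, *Grm6* and *Slc17a6* rise along the rod level over all groups (r of 0.955, 0.904 and 0.881), while *Onecut1* is at 0 in many choroids.

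As a description over the same 20 libraries, the r of single members with the rod level had a median of 0.839 over the 25 genes, from 0.404 for *Th* to 0.955 for *Gad1*. Over the other 7 genes it had a median of 0.249, from -0.461 for *Slc6a9* to 0.626 for *Tfap2a*. The split into 25 and 7 used the lowest of these same choroid values, so the gap in r is partly set by it. On the log2 scale a slope of 1 means change in proportion with the rod genes. The 6 bipolar genes of the 25 had slopes between 0.947 and 1.21, and *Slc17a6* had the steepest at 1.35. *Sncg* at 0.123, *Th* at 0.267, *Nefh* at 0.346 and *Tfap2b* at 0.361 were the shallowest, and all 4 stayed at 1.14% of the retinal level or more in every choroid.

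How a class stood beside the rod genes in the same choroid depended on which of its genes were counted. Over all members, the median of the 9 bipolar genes was below the rod median in 14 of 20 choroids (median ratio 0.822), that of the 10 ganglion genes in 9 (median ratio 1.2402) and that of the 9 amacrine genes in 7 (median ratio 1.51, up to 10.8). Over the 25 genes, which were kept by their choroid values, the bipolar median was below the rod median in 17 of 20 choroids, with a median ratio of 0.573 and a range from 0.210 to 1.358. The horizontal median was below it in 16 of 20 choroids (median ratio 0.574, range 0 to 4.15), on 4 genes of which *Lhx1* and *Onecut1* were at or under 3 reads in most choroids. The amacrine median over the 25 was below it in 12 of 20 (median ratio 0.890, range 0.417 to 1.87), and the ganglion median in 10 of 20 (median ratio 1.02, range 0.316 to 3.73). For amacrine genes the direction thus turned with the choice of genes. Of further class genes outside the list, 16 bipolar genes had a median ratio of 2.28 and lay above the rods in all 20 choroids, as did 10 ganglion genes (5.85), while 12 amacrine genes lay below in 13 (0.859) and 5 horizontal genes in 4 (1.29). The factor of 10 was not applied to these further genes. The bipolar ones include *Otx2*, also counted among genes of the retinal pigment epithelium, with means of 4562 normalized counts in choroid and 4753 in retina. Its part in the ratio was not tested. No order of the classes beside the rods held across these gene sets, which were not all chosen alike. Cone genes had a median ratio to rods of 1.31. A list of 8 Müller glia genes was at about 30.2% of its retinal level in the median choroid and ranged from 24.1% to 42.5%, and the rods from 0.167% to 10.1%. Of this list, *Rlbp1*, which the retinal pigment epithelium uses too, had a mean of 22958 normalized counts in choroid and 7606 in retina, and 1 of the 8 was called higher in choroid, so how much Müller glia RNA the choroids held cannot be read from these values. With that list in place of the rods the r of *Gad1*, *Grm6* and *Slc17a6* was 0.460, 0.459 and 0.237 (permutation test, adjusted p = 0.0836, 0.0836 and 0.418).

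**Figure D3:**
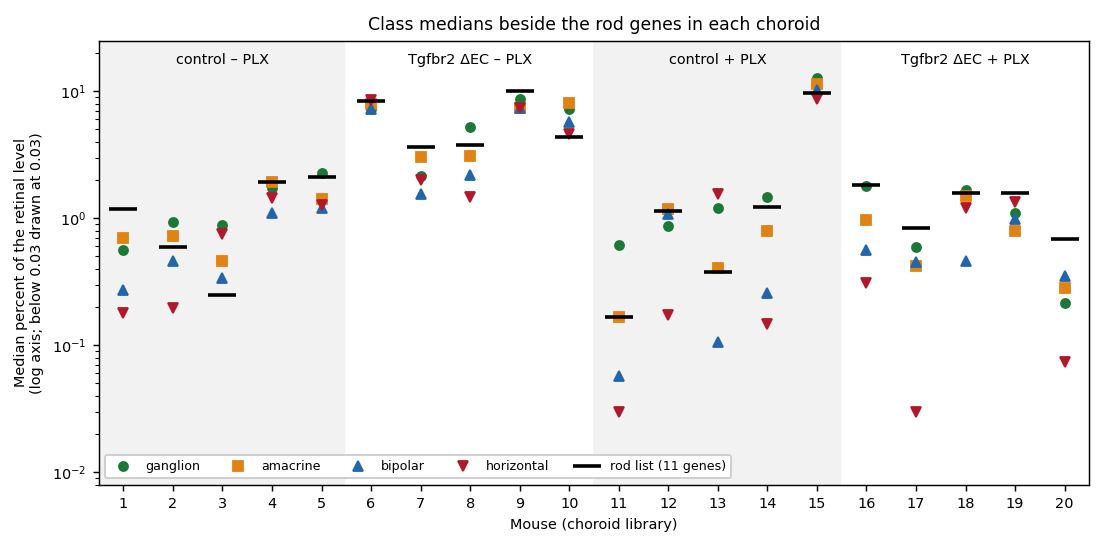
Median percent of the retinal level (log axis) over the 8 ganglion, 7 amacrine, 6 bipolar and 4 horizontal genes with a retinal mean of at least 10 times the lowest choroid, and over 11 rod genes (black bars), in each choroid. Symbols follow the bars from 0.167% (mouse 11) to 10.1% (mouse 9), with bipolar symbols below the bar in 17 of 20 choroids, and values under 0.03 are drawn at 0.03.

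By group, the median choroid of Tgfbr2 ΔEC – PLX was the highest in all 4 classes. With the members of a class summed before the ratio was taken, this no longer held for the amacrine class, at 15.2% in Tgfbr2 ΔEC – PLX and 15.3% in control + PLX, and the bipolar values were 47.5% in Tgfbr2 ΔEC – PLX and 41.5% in control – PLX. Over all members the ganglion medians were 1.48%, 7.95%, 1.89% and 1.47% (mice 1 to 5, 6 to 10, 11 to 15 and 16 to 20), the amacrine medians 2.29%, 7.95%, 5.00% and 0.794%, and the bipolar medians 0.706%, 6.87%, 0.524% and 0.632%. Over the 25 genes the ganglion medians were 0.939% in control – PLX, 7.20% in Tgfbr2 ΔEC – PLX, 1.20% in control + PLX and 1.101% in Tgfbr2 ΔEC + PLX, in that order. The amacrine medians were 0.722%, 7.36%, 0.792% and 0.791%, the bipolar medians 0.461%, 5.71%, 0.259% and 0.459%, and the horizontal medians, with all 4 members kept, 0.746%, 4.60%, 0.173% and 0.307%. The rod genes were also highest in Tgfbr2 ΔEC – PLX, at 1.19%, 4.38%, 1.15% and 1.58%, while the order of the other 3 groups differed between the classes. The spread within a group was wide where mouse 15 belonged, and the bipolar medians of the 5 control + PLX choroids ran from 0.0573% to 10.2%. Several medians over all members turned on single mice. The amacrine median of Tgfbr2 ΔEC + PLX lay between 0.677% and 2.51% when 1 mouse was left out, with the high values without mouse 17, 19 or 20. The bipolar median of control + PLX lay between 0.399% and 1.16%, high without mouse 11, 13 or 14, and that of control – PLX between 0.669% and 1.103%, high without mouse 1, 2 or 3. The horizontal median lay between 0.159% and 0.879% in control + PLX, high without mouse 11, 12 or 14, between 0.190% and 0.762% in Tgfbr2 ΔEC + PLX, high without mouse 16, 17 or 20 and low without 18 or 19, and between 0.470% and 1.005% in control – PLX, low without mouse 4 or 5. Over the 25 genes, with only the choroid left out (added after the data were seen), the bipolar median of control + PLX was 0.669% without mouse 11 or 13 and 0.592% without mouse 14, and that of control – PLX was 0.783% without mouse 1 or 3 and 0.720% without mouse 2.

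The first comparison asked whether deletion of *Tgfbr2* in endothelium changed these transcripts in choroid without PLX. *Slc17a6* (ENSMUSG00000030500, chromosome 7 of GRCm39, 51271434 to 51320867) was at 0, 4.15, 0, 16.46 and 11.6 normalized counts in the control – PLX choroids and at 86.0, 74.2, 46.2, 202 and 85.9 in Tgfbr2 ΔEC – PLX. *Gad1* (ENSMUSG00000070880, chromosome 2, 70383416 to 70432372) was at 76.3, 15.7, 14.2, 78.3 and 91.0 in the controls and at 366, 98.5, 204, 466 and 362 in Tgfbr2 ΔEC. *Grm6* (ENSMUSG00000000617, chromosome 11, 50741512 to 50757035) was at 19.1, 21.3, 11.1, 45.1 and 40.7 in the controls and at 459, 82.7, 105, 298 and 242 in Tgfbr2 ΔEC. In these 3 genes the groups did not overlap. *Onecut1* (ENSMUSG00000043013, chromosome 9, 74769118 to 74800594) was at 0, 0, 0, 1.56 and 2.66 in the controls and at 17.6, 3.44, 0, 11.96 and 0 in Tgfbr2 ΔEC, where 3 of 10 values were above the floor.

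The exact permutation test of 5 against 5 choroids, two-sided, gave p = 0.0079 for each of *Slc17a6*, *Gad1* and *Grm6*, the smallest it can give, and p = 0.206 for *Onecut1*. In limma over all 23619 genes, the log2 difference was 4.44 for *Slc17a6* (standard error 1.06, adjusted p = 0.168), 2.62 for *Gad1* (standard error 0.89, adjusted p = 0.279), 2.96 for *Grm6* (standard error 0.88, adjusted p = 0.209) and 1.37 for *Onecut1* (standard error 1.00, adjusted p = 0.777). Limma called 0 of the 32 members, against 1 gene (0.00423%) of the whole table. At an unadjusted p under 0.05 there were 22 members, against 9.25% of all genes, and in 12 members all Tgfbr2 ΔEC choroids exceeded all controls, against 2.38% of all genes. The 12 were *Slc17a6*, *Nefl*, *Gad1*, *Gad2*, *Slc32a1*, *Chat*, *Tfap2b*, *Grm6*, *Vsx1*, *Scgn*, *Onecut2* and *Calb1*. The median difference over the 32 members was 1.83 on the log2 scale and that over all genes tested 0.01.

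Mouse 15 belongs to neither group of this comparison but enters the common estimate of the spread. Without it, limma called 11 members higher in Tgfbr2 ΔEC (*Slc17a6*, *Nefl*, *Gad1*, *Gad2*, *Slc32a1*, *Tfap2b*, *Grm6*, *Vsx1*, *Cabp5*, *Scgn* and *Calb1*) and 411 genes (1.74%) in all, with adjusted p between 0.00622 and 0.0444 for the 11. In a fit of the 10 mice alone, 8 members were called, against 303 genes (1.28%). The rod genes moved with the same comparison, although limma called 0 of the 11 in the fit with all mice. In that fit all 11 had an unadjusted p under 0.05, and their median log2 difference was 2.57. Their summed levels were 4109 to 28297 normalized counts in the controls and 49270 to 138494 in Tgfbr2 ΔEC. With the rod level as a covariate the median difference over the members was 0.21, 0 members had an unadjusted p under 0.05, and *Gad1* was at -0.17. Since rod level and genotype moved together, a change of inner retinal transcripts and a change in the amount of retina in the sample cannot be told apart here.

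Between the genotypes with PLX, limma called 0 members and 1 gene (0.00423%) in all, 4 members had an unadjusted p under 0.05, against 3.76% of all genes, and the median over the members was -0.16. Tested as an interaction of genotype and diet, limma called 0 of 23619 genes (0%) and 0 members. At an unadjusted p under 0.05 there were 19 members, against 6.57% of all genes, with a median over the 32 of -2.12, and the lowest adjusted p of a member was 0.356 (*Chat*, limma).

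The next comparison asked what PLX did in Tgfbr2 ΔEC choroids. Limma called 5 members, all lower with PLX, against 826 genes (3.5%) called lower in the whole table. They came from 4 classes and were *Grm6*, *Slc32a1*, *Pou4f1*, *Calb1* and *Gad2*. *Grm6* fell by 3.66 on the log2 scale (standard error 0.88, adjusted p = 0.0190 from limma), to 8.52, 13.9, 13.4, 29.8 and 13.6 normalized counts with PLX. *Slc32a1* (ENSMUSG00000037771, chromosome 2, 158452605 to 158464883) was at 183, 70.4, 70.8, 183 and 186 without and at 9.03, 13.04, 34.6, 18.2 and 2.88 with PLX, and fell by 3.28 (standard error 0.80, adjusted p = 0.0209 from limma). *Calb1* (ENSMUSG00000028222, chromosome 4, 15881155 to 15908085) was at 98.1, 29.8, 41.5, 145 and 101 without and at 12.2, 0.991, 8.36, 16.55 and 2.97 with PLX, and fell by 3.36 (standard error 0.89, adjusted p = 0.0361 from limma).

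In these 3 genes every choroid with PLX was below every choroid without it. *Pou4f1* (ENSMUSG00000048349, chromosome 14, 104699112 to 104705504) was at 82.9, 8.96, 49.99, 54.7 and 52.3 without and at 9.16, 3.35, 5.24, 11.3 and 0 with PLX, and fell by 3.04 (standard error 0.81, adjusted p = 0.0356 from limma). Its groups overlapped in mouse 7. *Gad2* (ENSMUSG00000026787, chromosome 2, 22511862 to 22583886) was at 85.8, 30.5, 61.0, 133 and 73.1 without and at 5.65, 4.04, 16.9, 12.6 and 5.03 with PLX, without overlap, and fell by 3.01 (standard error 0.83, adjusted p = 0.0426 from limma).

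In 16 members all choroids with PLX lay below all without, against 5.16% of all genes tested, and the median over the 32 members was -2.12. Of the list of other ganglion, amacrine, bipolar and horizontal genes, limma called 0 of 10, 2 of 11, 4 of 16 and 1 of 5 tested genes lower and 1 of the 16 other bipolar genes higher. Of 11 rod genes it called 1 lower, and their median was -2.18. With the rod level as a covariate 0 members were called and the median over the members was -0.46. Without mouse 15 there were 15 members called lower and 1 higher (*Rbpms*), against 5.25% of all genes called lower. Without mouse 10 there were 2 (against 3.25%), and without mouse 6 or without mouse 9 there were 0 (against 2.56% and 2.44%), so the count of 5 depended on single mice. This comparison shares the Tgfbr2 ΔEC – PLX choroids with the first, so the 2 sets of differences are not independent.

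In control choroids limma called 2 members, both higher with PLX, against 142 genes (0.601%) called higher in all. *Rbpms* (ENSMUSG00000031586, chromosome 8, 34272116 to 34420037) was at 1175, 1190, 1057, 1266 and 1122 normalized counts without PLX and at 1725, 1627, 1281, 1466 and 1327 with it. It rose by 0.35 on the log2 scale (standard error 0.09, adjusted p = 0.0398 from limma), without overlap of the groups. The call was lost in 11 of 20 fits that each left out 1 mouse (adjusted p up to 0.133, without mouse 11), in the 10 mice alone (0.137) and with the rod level as a covariate (0.0502), while the difference stayed between 0.29 and 0.40. In Tgfbr2 ΔEC choroids its difference was 0.31 (standard error 0.09, adjusted p = 0.0645 from limma), also without overlap. The summed level of the smooth muscle and pericyte genes ran from 39800 to 59335 in controls without PLX and from 54393 to 61315 with it, limma called 2 of the 7 higher with PLX, and their part in the *Rbpms* values was not tested.

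*Chat* (ENSMUSG00000021919, chromosome 14, 32129369 to 32187946) was at 0, 5.09, 2.32, 4.08 and 2.996 in control – PLX and at 3.06, 94.7, 8.61, 81.3 and 156 in control + PLX. It rose by 3.37 on the log2 scale (standard error 0.91, adjusted p = 0.0407 from limma), carried by mice 12, 14 and 15. Without mouse 15 the adjusted p was 0.130, without mouse 12 it was 0.0877 and without mouse 14 it was 0.119, and the call was lost in 10 of 20 such fits, also without control – PLX mice (0.123 without mouse 1). In mouse 12 *Chat* stood at 44.9% of its retinal level while the rod median was 1.15%, and in mouse 14 at 38.6% beside 1.23%. The other 6 amacrine genes of the 25 lay between 0.260% and 6.46% in both choroids, while *Slc6a9* stood at 51.2% and 79.3%. Among genes of other cholinergic steps, *Slc18a3* was raised in all 3 mice and *Slc5a7* in mice 14 and 15 but not in mouse 12. *Slc18a3*, the vesicular acetylcholine transporter gene nested in *Chat*, was at 10.8, 47.9 and 26.6 in mice 12, 14 and 15. Its median was 7.36 over the 20 choroids and its highest control – PLX choroid 7.42. *Slc5a7*, the choline transporter, was at 3.44, 84.3 and 72.8 against a median of 39.8 and control – PLX choroids of 8.44 to 53.4. The 7 peripheral neuron genes summed to 77.3 to 322 in control + PLX and 79.8 to 167 in control – PLX choroids, with *Hand2* at 0 in 18 of 20 choroids, and the part of such neurons in the *Chat* values was not tested.

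**Figure D4:**
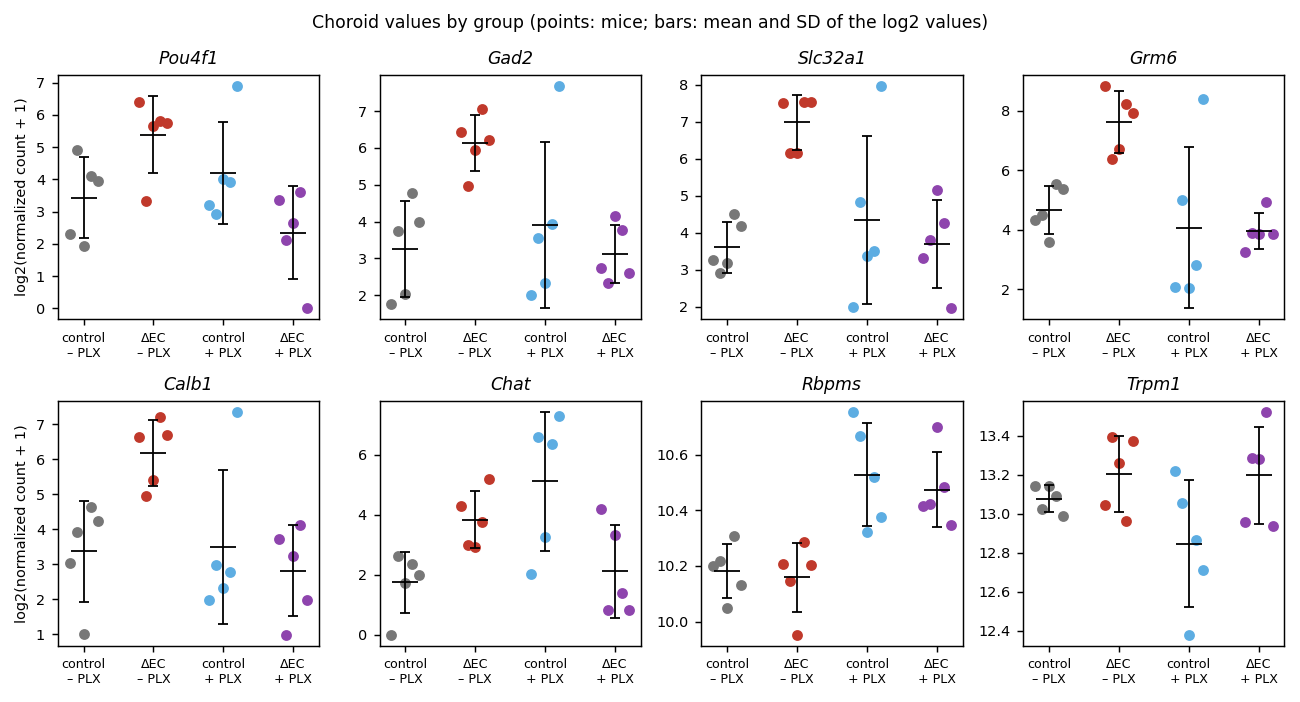
Choroid values of 8 members by group as log2(normalized count + 1), with 1 point per mouse and bars for the mean and SD of the 5 log2 values. *Pou4f1*, *Gad2*, *Slc32a1*, *Grm6* and *Calb1* are high in Tgfbr2 ΔEC – PLX and in mouse 15 of control + PLX, *Chat* is high in 3 control + PLX mice, and *Rbpms* and *Trpm1* follow neither pattern.

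In retina, where these neurons reside, none of the 32 members passed the threshold in any of the 5 comparisons by limma. The counts over all 23243 genes were 0 (0%) for the genotypes without PLX, 0 (0%) with PLX, 171 (0.736%) for PLX in controls, 120 (0.516%) for PLX in Tgfbr2 ΔEC and 0 (0%) for the difference of genotype effects. Members with an unadjusted p under 0.05 numbered 0, 0, 1, 1 and 0, against 3.26%, 2.71%, 5.74%, 3.95% and 2.44% of all genes. These were *Grik1* for PLX in controls, at a log2 difference of 0.23, and *Rbpms* for PLX in Tgfbr2 ΔEC, at 0.22. The members' differences between genotypes without PLX lay between -0.46 and 0.36, and the median standard error was 0.14. For PLX the median difference over the members was 0.108 in controls and 0.110 in Tgfbr2 ΔEC, against 0.0048 and -0.0020 over all genes. Of the 32 members, 22 and 29 were higher with PLX in these 2 comparisons, and this shift over the members was not tested. The mean of *Grm6* was 3050 ± 419 normalized counts in control – PLX, 3020 ± 282 in Tgfbr2 ΔEC – PLX, 2967 ± 228 in control + PLX and 3055 ± 295 in Tgfbr2 ΔEC + PLX (SD, n = 5 mice each). That of *Slc17a6* was 1584 ± 199.9, 1606 ± 117, 1694 ± 227 and 1750 ± 331 (SD, n = 5 each), and the ranges of the groups overlapped for both.

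Some members varied widely between retinas of the same group. In retinas 2 and 3 (control – PLX), 7 (Tgfbr2 ΔEC – PLX) and 11 (control + PLX), genes with transcripts under 1500 bases were high relative to those over 6000 bases, by 0.55 to 1.19 on the log2 scale, against -0.35 to 0.17 in the other 16. *Pcp2*, of 476 bases, was at 6603 normalized counts in retina 11 and at most 3344 in the other 16. *Gng13*, a G protein subunit with a transcript of 719 bases, was at 3390 in retina 11, and at most 1523 in those 16. *Onecut2*, of 16234 bases, was between 163 and 184 in the 4 retinas and between 195 and 362 in the others. *Trpm1*, of 7948 bases, was between 2256 and 2491 in the 4 and between 3445 and 4941 in the others. *Onecut1*, of 5573 bases, was at 15.1 in retina 11 against a median of 122. Whether RNA quality or library preparation moved with these 4 retinas was not tested.

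**Figure D5:**
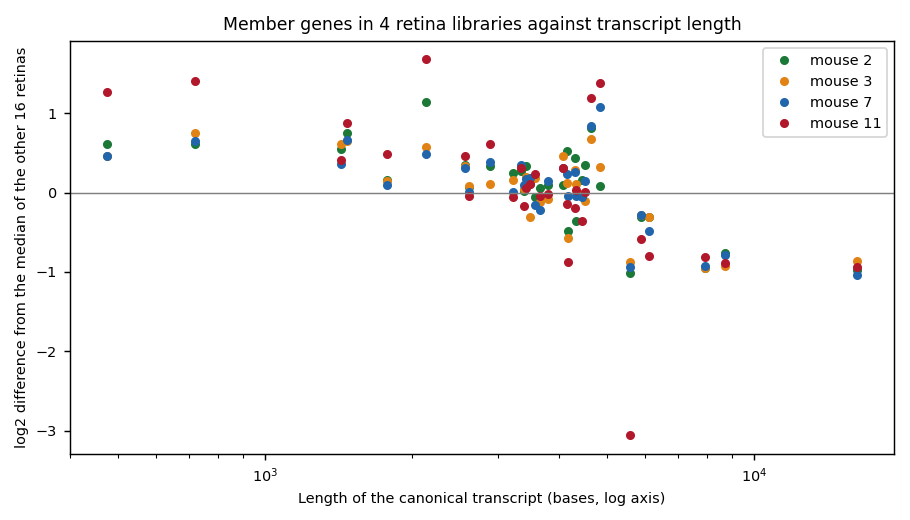
Log2 difference of each of the 32 members from its median over the other 16 retinas (on log2(normalized count + 1)), for the retinas of mice 2, 3, 7 and 11, against the length of the canonical transcript (log axis). Points lie mostly above 0 for short transcripts and near -1 for the longest, with *Onecut1* of mouse 11 at -3.05.

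Without these 4 retinas the coefficient of variation of *Pcp2* went from 32.6% to 13.7%, that of *Gng13* from 35.3% to 11.8% and that of *Trpm1* from 23.1% to 10.3%. The members called stayed at 0 in all 5 comparisons by limma, while those with an unadjusted p under 0.05 became 3, 1, 10, 10 and 2, against 4.82%, 3.7%, 7.87%, 8.28% and 4.7% of all genes. The median log2 difference over the members for PLX was then 0.13 in controls and 0.16 in Tgfbr2 ΔEC. The group means of *Grm6* without them were 3216, 3041, 2933 and 3055 normalized counts, and those of *Slc17a6* 1468, 1605, 1791 and 1750, in the order of the groups above. A second set of outlying values was not tied to length. *Chat* was at 710 normalized counts in retina 4 and between 155 and 231 in the other 19, while *Slc18a3* in retina 4 was at 110 and *Slc5a7* at 339, within the range of the other retinas. *Lhx1* was at 277, 263, 308 and 425 in retinas 4, 8, 14 and 17 and at most 166 elsewhere.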

How the data were processed

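RNA was sequenced from retina and choroid of 20 mice. The authors quantified stranded single reads of polyadenylated RNA with Salmon 1.10.1 against GRCm39, imported them with tximport into DESeq2 1.36.0, and the deposited signal per gene is normalized counts. The authors analysed the tissues separately, but the deposited table has 1 scale: the median log2 ratio to the mean of each gene was 0.0117 in each of the 20 retinas and 20 choroids (15800 genes above 0 in all). They are not whole, and between 41.2% and 65.3% of low values lay within 0.1 of a whole read, so no count test was run and depth is approximate. Groups came from the labels.

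Differences were tested with limma 3.58.1 in R 4.3.3 (mean-variance trend, log2(normalized count + 1), mean of at least 1, 4 groups of a tissue in 1 fit, Benjamini-Hochberg adjustment). On this scale fold changes of genes near the pseudocount come out too small. Exact permutation was used for 1 gene at a time, with Python 3.11.15 and scipy 1.17.1. The procedure was tested on simulated data. The authors' covariates, sex and an estimated neuronal percentage, were not in the labels and not in the main fits. A sex score computed from the data was used only as an alternative. Retina and choroid share the mouse number, and a fit with the mouse as replicate block was an alternative for the comparison of tissues. Other alternatives were pseudocounts, filters, scalings, covariates and leaving out mice. All members are accounted for, with values for 1 gene per class, those called in a tissue and, per class, the 3 lowest and highest carry-overs. *Slc18a3*, *Slc5a7*, *Hand2* and the outlying retinal values were chosen after their values were seen. Members and lists were chosen with earlier results of these data known. One gene is not reported here.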

Additional observations from a re-analysis of the deposited data

Results flagged for a closer look

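In each group of 5 libraries of a tissue, the highest or lowest value of a member was compared with its nearest neighbour, and the gap was divided by the range of the group. It exceeded the critical value of 0.71 in 45 of 256 sets of 5 values. Chance would give about 12.8 if the values were normally distributed and independent. The gaps were taken on normalized counts and not on the log scale of the fits, and skewed counts can exceed the value more often. Values of 1 library are also not independent of each other, so the excess of 45 over 12.8 was not tested. The gaps below only describe which libraries stood apart on the count scale.

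The choroid of mouse 15 (control + PLX) accounted for 19 of the 45, always as the highest of its group. The gaps were 0.923 for *Pou4f1*, 0.908 for *Pou4f2*, 0.919 for *Pou4f3*, 0.935 for *Slc17a6*, 0.907 for *Nefl*, 0.855 for *Nefh*, 0.961 for *Gad1*, 0.944 for *Gad2*, 0.902 for *Slc32a1*, 0.804 for *Tfap2b*, 0.972 for *Calb2*, 0.916 for *Grm6*, 0.942 for *Pcp2*, 0.971 for *Vsx1*, 0.924 for *Cabp5*, 0.782 for *Gng13*, 0.786 for *Lhx1*, 0.806 for *Onecut2* and 0.975 for *Calb1* of the range. In the choroid of mouse 9 they were 0.745 for *Slc17a6* and 0.742 for *Th*, in mouse 19 0.75 for *Grm6* and 0.966 for *Lhx1*, and in mouse 18 1 for *Onecut1*, whose other 4 group members listed *Onecut1* at 0.

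The retina of mouse 7 accounted for 9, with gaps of 0.712 for *Sncg*, 0.83 for *Stmn2*, 0.834 for *Gad2*, 0.731 for *Slc32a1*, 0.852 for *Th*, 0.801 for *Calb2*, 0.842 for *Trpm1*, 0.754 for *Scgn* and 0.735 for *Onecut2*. The retina of mouse 11 accounted for 8, with gaps of 0.717 for *Slc17a6*, 0.773 for *Sncg*, 0.919 for *Stmn2*, 0.739 for *Gad2*, 0.821 for *Th*, 0.879 for *Tfap2b*, 0.851 for *Pcp2* and 0.856 for *Gng13*. Single values stood apart in retina 2 (0.74 for *Pou4f1*), retina 4 (0.952 for *Chat*), retina 16 (0.791 for *Grik1*) and retina 17 (0.836 for *Lhx1*). Retinas 2, 7 and 11 were among the 4 with high short transcripts, and the part of this in their values was not tested.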

How the results depend on the processing

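Most values stayed within the limits set for their kind of result. For single genes and correlations these were the direction and the side of the threshold. Counts of genes had to stay within a fixed factor, and class percentages within the SD of the group's choroids. Where that SD was wide, a class median could shift by several times and still count as kept. Of the results that answer a comparison, 809 alternative values were kept, 76 moved and 5 fell below the threshold. Of the values for single genes 269 were kept, 64 fell below, 5 rose above and 2 reversed. The 2 reversals came with the rod level as a covariate, for the genotype difference without PLX of *Gad1* (-0.17) and *Onecut1* (-0.30) in choroid. Unless said otherwise, the cause was not tested.

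For the genotypes without PLX in choroid, 0 genes were called at a minimum mean of 10, and 303 genes and 8 members in the 10 mice alone. Leaving out 1 mouse at a time gave 1 to 411 genes and 0 to 11 members. With PLX, 0 genes were called with a pseudocount of 5, a minimum mean of 10, the 10 mice alone, or sex, rod level or transcript length (added after the data were seen) as covariate, and 0 to 1 without single mice. For PLX in controls, the 10 mice alone gave 572 genes and 0 members, all genes above 0 gave 0 members, and leaving out mice gave 671 to 1091 genes and 0 to 3 members. For PLX in Tgfbr2 ΔEC, the rod level gave 537 genes and 0 members, and a pseudocount of 5, all genes above 0 and the 10 mice alone gave 9, 2 and 17 members. Leaving out mice gave 652 to 1405 genes and 0 to 16 members. In retina, PLX in controls gave 104 genes at a minimum mean of 10, and the genotypes with PLX 0 to 1 genes without single mice.

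With the Müller list in place of rods r was 0.237 for *Slc17a6*, 0.460 for *Gad1*, 0.459 for *Grm6* and 0.091 for *Onecut1*, and for *Onecut1* without the 2 farthest choroids it was 0.457. Summing a class, which weights its abundant genes, gave 7.92%, 12.6%, 10.3% and 9.05% for ganglion genes in the 4 groups (mice 1 to 5, 6 to 10, 11 to 15 and 16 to 20), then 12.6%, 15.2%, 15.3% and 12.1% for amacrine and 41.5%, 47.5%, 39.7% and 43.7% for bipolar genes. The amacrine median of control – PLX was 2.29% over all members and 0.722% over the genes with a retinal mean of at least 10 times the lowest choroid. With the mouse as replicate block, 19855 genes differed between the tissues, against 19930 without this pairing, and 32 members differed in both fits. Groups within a tissue share no mouse. Depth limits *Pou4f3*, *Onecut1* and *Lhx1* most, and the approximate reads cover counting error only.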
